A study of Homo sapiens with 4 samples.

Results

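A total of 51 genes that carry out chromosome segregation and cell division were examined in 2 control and 2 CEBPG knockdown libraries of the series, all labelled NB4, which names a human line of acute promyelocytic leukemia. The genes were chosen by name, as components and regulators of the mitotic spindle, the kinetochore and the spindle checkpoint. All 51 symbols were found among the 16504 gene symbols of the expression table, and all 51 passed the filter of a mean level of 1 FPKM or more, which left 10968 genes to be tested. FPKM is the number of fragments per kilobase of exon, scaled by the mapped reads of the library, so levels are per transcript length and can be compared between genes.

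In mitosis, kinases of the CDK1, Polo and Aurora families drive the condensed chromosomes onto a spindle of microtubules. Each chromosome attaches through its kinetochore, a protein assembly built on the centromere, in which an inner layer holds the centromere and an outer layer holds the microtubule. A checkpoint delays the separation of sister chromatids until all kinetochores are attached, and the midzone and contractile ring then divide the cell. RNA of most of these genes rises in the G2 and M phases of the cycle, which is why they are widely read as proliferation genes in leukemia cells.

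In the study, a short hairpin RNA (shRNA) against CEBPG was delivered by lentivirus in the pLKO.1-puro vector and infected cells were selected with puromycin as stable lines. The control cells carried a control shRNA. The number 3 in the knockdown label was read as the shRNA of that number, which is an assumption, and no other hairpin was sequenced in NB4 in these libraries. The labels give no time of harvest, and they do not say whether the replicates numbered 1 and 2 came from separate infections or cultures, so p-values measure the spread between these libraries, which may be technical.

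CEBPG, the targeted leucine-zipper transcription factor, had 17.1 and 18.1 FPKM in the controls and 6.91 and 7.96 FPKM after knockdown (knockdown minus control -1.14 on the log2(FPKM + 1) scale used for all log2 fold changes here, which understates changes of low genes, standard error 0.082, limma adjusted p = 0.000836). Erythroid genes were abundant in all 4 libraries: 12 of 14 erythroid markers were at 10 FPKM or more in every library, AHSP was under 1 FPKM, and their summed level was 8473 and 8002 FPKM in the controls and 9472 and 8910 FPKM in the knockdown. Of 6 promyelocytic granule markers 4 (AZU1, PRTN3, MS4A3 and CST7) were under 1 FPKM in every library, with a sum of 27.1 to 29.98 FPKM over the 6, and of 8 myeloid surface and regulator markers 6 were under 1 FPKM. The other 2 granule markers, LYZ and CFD, were at 15.0 to 20.1 and 7.63 to 10.98 FPKM, and of the myeloid markers SPI1 was at 15.2 to 17.2 and CD33 at 4.31 to 9.77 FPKM. By these markers the libraries expressed erythroid genes, among them the erythroid regulators GATA1 (109.9 to 128.3 FPKM) and KLF1 (72.0 to 86.3 FPKM), and lacked most granule and myeloid markers, which goes against the NB4 label, so the identity of the line is in doubt and NB4 is used here as the label only. The summed erythroid level was higher in both knockdown libraries, and its part in the results was not tested. Read depth was unknown.

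Of the 51 mitotic genes, 15 fell and 1 rose in the knockdown with an adjusted p under 0.05 (limma). The lower genes were 29.4% of the 51, against 9.99% of all tested genes, the higher gene was 1.96% against 10.9%, and calls in either direction made up 20.9% of all tested genes. The 15 lower genes were KIF2C, HMMR, CENPH, CENPI, NUF2, MKI67, CENPE, INCENP, ESPL1, CDK1, CCNA2, CENPF, CCNB1, TPX2 and BIRC5, and the higher gene was PRC1. In bulk RNA, fewer cells in mitosis and less RNA of these genes per cell cannot be told apart. In all, 39 of the 51 (76.5%) had a log2 fold change below 0, against 47.3% of tested genes. The median log2 fold change was -0.10 for the 51 genes and 0.015 for all tested genes. Most changes were modest: the 16 called genes had a median of 0.33 in absolute log2 fold change. With an unadjusted p under 0.05 in this fit and a log2 fold change beyond 1 in size, which is close to the cut the study set with another tool, 0 of the 51 genes were called, against 0.602% of tested genes. At an unadjusted p under 0.05 alone (limma), 22 genes were lower and 2 higher, against 17.4% and 19.6% of tested genes. Both knockdown libraries lay below both controls for 31 genes and above both for 8, where all tested genes gave 30.5% and 34.3% (64.8% in either direction). The number of lower calls rested on all 4 libraries: it was 4 without knockdown 1 (7.84%, against 3.79% of tested genes), 5 without knockdown 2 (9.80% against 4.01%), 11 without control 1 (21.6% against 6.53%) and 13 without control 2 (25.5% against 8.63%). With no filter on low values 6 were called (11.8% against 2.76%), and with a mean of at least 5 FPKM 16 were called (32% against 14.3%). CENPH, NUF2, KIF2C and HMMR were called lower in each of the 11 alternatives at gene level. The other 11 lower genes were called in 6 to 9 of them, and without knockdown 1 none of these 11 was called (limma). Their log2 fold changes stayed below 0 in every fit with a library left out, from -0.33 to -0.26 for CDK1 and from -0.46 to -0.33 for MKI67, for instance, and over all genes lower calls also dropped, from 1096 to 415 without knockdown 1. In these fits a group is left with 1 library, which is assumed to vary like the other group. BIRC5, TPX2 and ESPL1 were called in 6, with a limma adjusted p up to 0.202, 0.176 and 0.189, and CENPI in 6 of the 10 in which it was tested, with one up to 0.111. These 4 genes were each lost when control 1, knockdown 1 or knockdown 2 was left out.

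**Figure D1:**
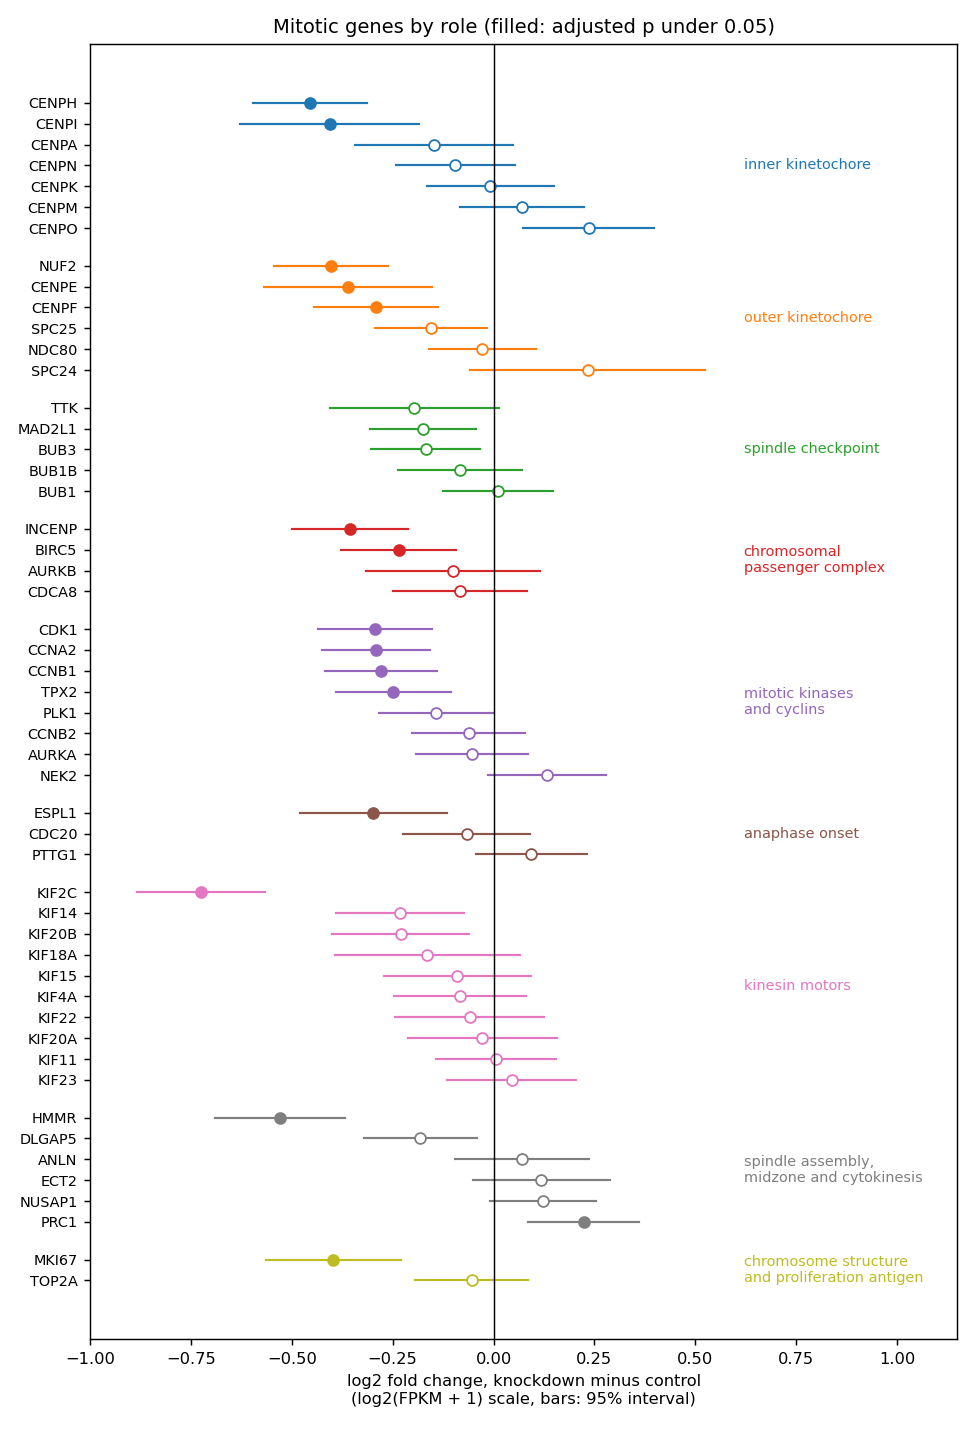
Log2 fold change (knockdown minus control, on the log2(FPKM + 1) scale) of the 51 mitotic genes, grouped by role. Points are estimates from 2 control and 2 knockdown libraries, bars are 95% intervals from limma, and filled points have an adjusted p under 0.05. Filled points lie left of 0 for 15 genes and right of 0 for PRC1 only, and 39 of the 51 points lie below 0.

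The libraries of a group also differed from each other. Over the 51 genes, the median log2 difference was 0.036 between control 1 and control 2 and -0.036 between knockdown 1 and knockdown 2, while the 4 pairs of a knockdown with a control library gave -0.17, -0.14, -0.14 and -0.043. Over all tested genes the pairs within groups gave 0.052 and -0.0030, and the other 4 pairs gave -0.012, 0.036, -0.0092 and 0.038, in the order knockdown 1 against controls 1 and 2, then knockdown 2 against controls 1 and 2. The genes together held 0.537% and 0.548% of FPKM in the controls and 0.474% and 0.498% in the knockdown libraries.

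Levels of the 51 genes spanned a mean of 4.42 FPKM (CENPI) to 116.1 FPKM (PTTG1) over the 4 libraries, with a median of 24.3 FPKM. PTTG1 lay above all other members in every library. Next came TOP2A, CDK1, CDC20 and CCNB1, with means between 91.6 and 95.7 FPKM, and these 4 overlapped in range from each to the next. Of the 50 pairs of neighbours in this order, 45 overlapped in the range of their 4 libraries, so the exact rank of most genes is not resolved.

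The 10 KIF genes encode kinesins, motor proteins that walk along or take apart microtubules. Of these genes KIF2C fell (10%, against 9.99% of all tested genes) and the other 9 did not pass the test. CENPE, also a kinesin, is given with the outer kinetochore. KIF2C encodes MCAK, a kinesin that depolymerizes microtubules and corrects faulty attachments at centromeres. The gene spans bases 44739818 to 44767767 of chromosome 1, plus strand (GRCh38 with GENCODE 44). KIF2C had 72.0 and 65.4 FPKM in the controls and 41.8 and 40.4 FPKM after knockdown. Both knockdown libraries were far below both controls, and the mean fell from 68.7 ± 4.64 to 41.1 ± 0.986 FPKM (SD, n = 2), which is 59.8% of control. Its log2 fold change of -0.73 (standard error 0.067, limma adjusted p = 0.00158) was the lowest of the 51 and stayed between -0.79 and -0.66 over the 11 gene-level alternatives. At the other end of the KIF genes, KIF23, the motor of the central spindle, was at 11.6 and 12.5 FPKM in the controls and 12.4 and 12.5 FPKM in the knockdown. These groups overlapped (log2 fold change 0.045, 95% interval -0.12 to 0.20). KIF4A, KIF11, KIF14, KIF15, KIF18A, KIF20A, KIF20B and KIF22 had values between -0.23 and 0.0054, and 2 of them were lower at an unadjusted p under 0.05.

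In the inner kinetochore, 2 of 7 genes fell (28.6%, against 9.99% of all tested genes). CENPH and CENPI encode subunits of the constitutive centromere-associated network, which sits on the centromeric nucleosomes marked by CENPA. CENPH (chromosome 5, bases 69189574 to 69210357, plus strand) was at 48.7 and 45.9 FPKM in the controls and 34.3 and 34.1 FPKM in the knockdown (log2 fold change -0.46, standard error 0.060, limma adjusted p = 0.00445). CENPI, the least abundant of the 51, was at 5.58 and 4.78 FPKM in the controls and 3.58 and 3.73 FPKM in the knockdown (-0.41, standard error 0.093, limma adjusted p = 0.0255). Neither gene overlapped between groups, and 72.3% and 70.5% of their control means remained. CENPO, another subunit of this network, lay on the other side of 0: it was at 20.2 and 18.4 FPKM in the controls and 22.6 and 23.2 FPKM in the knockdown, and its log2 fold change of 0.24 missed the threshold (limma adjusted p = 0.0521) but passed it in 5 of the 11 gene-level alternatives. Of the annotated exonic bases of CENPO, 27% also belong to ADCY3 on the other strand, and reads of the 2 genes cannot be told apart there because the counting was not stated to use strand. The other 4 genes, CENPA, CENPK, CENPM and CENPN, had values between -0.15 and 0.070.

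In the outer kinetochore, 3 of 6 genes fell (50%, against 9.99% of all tested genes). Among them was 1 of the 4 subunits of the NDC80 complex, the rod that grips the microtubule end. NUF2, the partner of NDC80 in the microtubule-binding arm, spans bases 163266576 to 163355764 of chromosome 1, plus strand. NUF2 was at 20.2 and 20.4 FPKM in the controls and 14.9 and 15.2 FPKM in the knockdown (log2 fold change -0.40, standard error 0.060, limma adjusted p = 0.00641). Its groups were well apart and its replicates close, so that 74.4% of the control mean remained. SPC24, at the kinetochore end of the same rod, had 22.3 and 21.9 FPKM in the controls and 30.2 and 22.6 FPKM in the knockdown, and its value of 0.23 (limma adjusted p = 0.215) became 0.033 without knockdown 1 and 0.43 without knockdown 2, where it was called higher with the controls as the only replicated group (limma adjusted p = 0.0332). NDC80 and SPC25 had values between -0.16 and -0.027 and were not called, and the difference between subunits was not tested. CENPE, a kinesin that moves chromosomes to the spindle equator, was at 6.28 and 7.26 FPKM in the controls and 4.97 and 5.11 FPKM in the knockdown (-0.36, standard error 0.088, limma adjusted p = 0.0308). CENPF, a large protein of the outer plate and corona, was at 17.9 and 19.2 FPKM in the controls and 15.0 and 14.9 FPKM in the knockdown (-0.29, standard error 0.065, limma adjusted p = 0.0230). For both genes the groups did not overlap, and of the 4 fits with a library left out, both were called only in that without control 1 (limma adjusted p up to 0.125 in the others).

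Of the 5 genes of the spindle checkpoint, 0 were called (limma, against 20.9% of all tested genes), with 2 lower and 0 higher at an unadjusted p under 0.05. TTK, the kinase at the top of the checkpoint, was the lowest of them, at 13.5 and 13.4 FPKM in the controls and 10.7 and 12.7 FPKM in the knockdown (log2 fold change -0.20, limma adjusted p = 0.160). Both knockdown libraries lay below the controls, with knockdown 2 close to them. BUB1, a kinetochore kinase, was the highest, at 57.1 and 55.7 FPKM in the controls and 55.7 and 57.9 FPKM in the knockdown (0.011, 95% interval -0.12 to 0.15, limma adjusted p = 0.907). The BUB1 groups overlapped, and its sign changed with the scaling of the libraries. BUB1B, BUB3 and MAD2L1, whose products form the complex that holds back CDC20, lay between -0.17 and -0.083.

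The chromosomal passenger complex, which carries Aurora B to centromeres and midzone, had 2 of its 4 genes lower (50%, against 9.99% of all tested genes). INCENP, its scaffold, was at 25.5 and 24.7 FPKM in the controls and 19.8 and 19.0 FPKM in the knockdown (log2 fold change -0.36, standard error 0.061, limma adjusted p = 0.0104). BIRC5, which encodes survivin, was at 65.3 and 61.2 FPKM in the controls and 53.0 and 54.2 FPKM in the knockdown (-0.24, standard error 0.060, limma adjusted p = 0.0361). In both, the knockdown libraries lay below the controls, at 77.3% and 84.7% of the control means. CDCA8, which encodes borealin, was at 43.2 and 38.7 FPKM in the controls and 38.1 and 39.1 FPKM in the knockdown, and these groups overlapped (-0.083, limma adjusted p = 0.433). AURKB, the kinase of the complex, was not called (-0.10, 95% interval -0.32 to 0.11).

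Of the kinases and cyclins of mitotic entry, 4 of 8 genes fell (50%, against 9.99% of all tested genes), by similar amounts. CDK1, the kinase that drives entry into mitosis, was at 102.8 and 108.0 FPKM in the controls and 83.9 and 87.7 FPKM in the knockdown (log2 fold change -0.29, standard error 0.059, limma adjusted p = 0.0174). CCNA2, the cyclin of S and G2 phase, was at 68.3 and 66.0 FPKM in the controls and 54.1 and 55.2 FPKM in the knockdown (-0.29, standard error 0.056, limma adjusted p = 0.0150). CCNB1, the cyclin that activates CDK1 at mitotic entry, was at 103.7 and 97.5 FPKM in the controls and 82.7 and 82.6 FPKM in the knockdown (-0.28, standard error 0.059, limma adjusted p = 0.0196). These 3 genes kept 81.4%, 81.4% and 82.2% of their control means and none overlapped between groups. TPX2, which activates Aurora A on the spindle, was at 62.2 and 58.3 FPKM in the controls and 50.1 and 51 FPKM in the knockdown (-0.25, standard error 0.060, limma adjusted p = 0.0303). NEK2, a kinase of centrosome separation, was at 25.4 and 25.7 FPKM in the controls and 29.0 and 27.2 FPKM in the knockdown, higher in both but not called (0.13, limma adjusted p = 0.171). PLK1, AURKA and CCNB2 were also not called, with values between -0.14 and -0.054. For CCNA2, 9.24% of exonic bases belong also to EXOSC9 on the other strand.

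At the onset of anaphase, separase (ESPL1) cuts the cohesin that holds sister chromatids, after its inhibitor securin (PTTG1) is destroyed through CDC20. ESPL1 was at 15.9 and 14.8 FPKM in the controls and 11.6 and 12.9 FPKM in the knockdown (log2 fold change -0.30, standard error 0.077, limma adjusted p = 0.0363). PTTG1 was at 115.1 and 109.6 FPKM in the controls and 117.9 and 121.9 FPKM in the knockdown (0.093, limma adjusted p = 0.287). The RNA of separase was lower in both knockdown libraries and that of securin did not pass the test, the ESPL1 call was lost in 3 of the 4 fits with a library left out, and the difference between the genes was not tested. PTTG1 has near-identical copies in the genome, so its level is uncertain. CDC20 was not called (-0.067, 95% interval -0.22 to 0.089).

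In the group of spindle assembly, midzone and cytokinesis genes the directions were mixed, with 1 of 6 lower and 1 higher. Each is 16.7% of the group, against 9.99% and 10.9% of all tested genes. HMMR, which encodes the hyaluronan-mediated motility receptor, a spindle pole protein that works with TPX2, spans bases 163460203 to 163491941 of chromosome 5, plus strand. HMMR was at 40.2 and 38.1 FPKM in the controls and 25.7 and 28.0 FPKM in the knockdown (log2 fold change -0.53, standard error 0.068, limma adjusted p = 0.00421). It kept 68.6% of the control mean, the second lowest log2 fold change of the 51. PRC1, which bundles the antiparallel microtubules of the midzone, spans bases 90966040 to 90995629 of chromosome 15, minus strand. PRC1 was at 32.8 and 32.7 FPKM in the controls and 37.6 and 39.3 FPKM in the knockdown (0.22, standard error 0.058, limma adjusted p = 0.0372). PRC1 was the only called gene with higher values, at 117.3% of control, and it was called in 5 of the 11 gene-level alternatives. None of these 5 left a library out, and in the fits that did, its log2 fold change was 0.19 to 0.25. Of its exonic bases, 57.6% belong also to ENSG00000284946, annotated on the same strand. ANLN, ECT2 and NUSAP1, which act at the contractile ring and on midzone microtubules, had values from 0.071 to 0.12, and DLGAP5, a stabilizer of spindle microtubules, had -0.18, with none of the 4 called.

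The pair of genes most used as proliferation markers differed in their values. MKI67, which encodes the Ki-67 antigen that coats mitotic chromosomes, was at 22.2 and 23.6 FPKM in the controls and 16.4 and 17.9 FPKM in the knockdown (log2 fold change -0.40, standard error 0.071, limma adjusted p = 0.0121). TOP2A, which encodes the topoisomerase that untangles sister chromatids, was at 97.2 and 97.8 FPKM in the controls and 90.9 and 96.8 FPKM in the knockdown (-0.054, 95% interval -0.19 to 0.085, limma adjusted p = 0.541). MKI67 was thus at 74.9% of control with groups well apart, and TOP2A at 96.3% with knockdown 2 close to the controls. Whether the changes of these 2 genes differ was not tested.

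**Figure D2:**
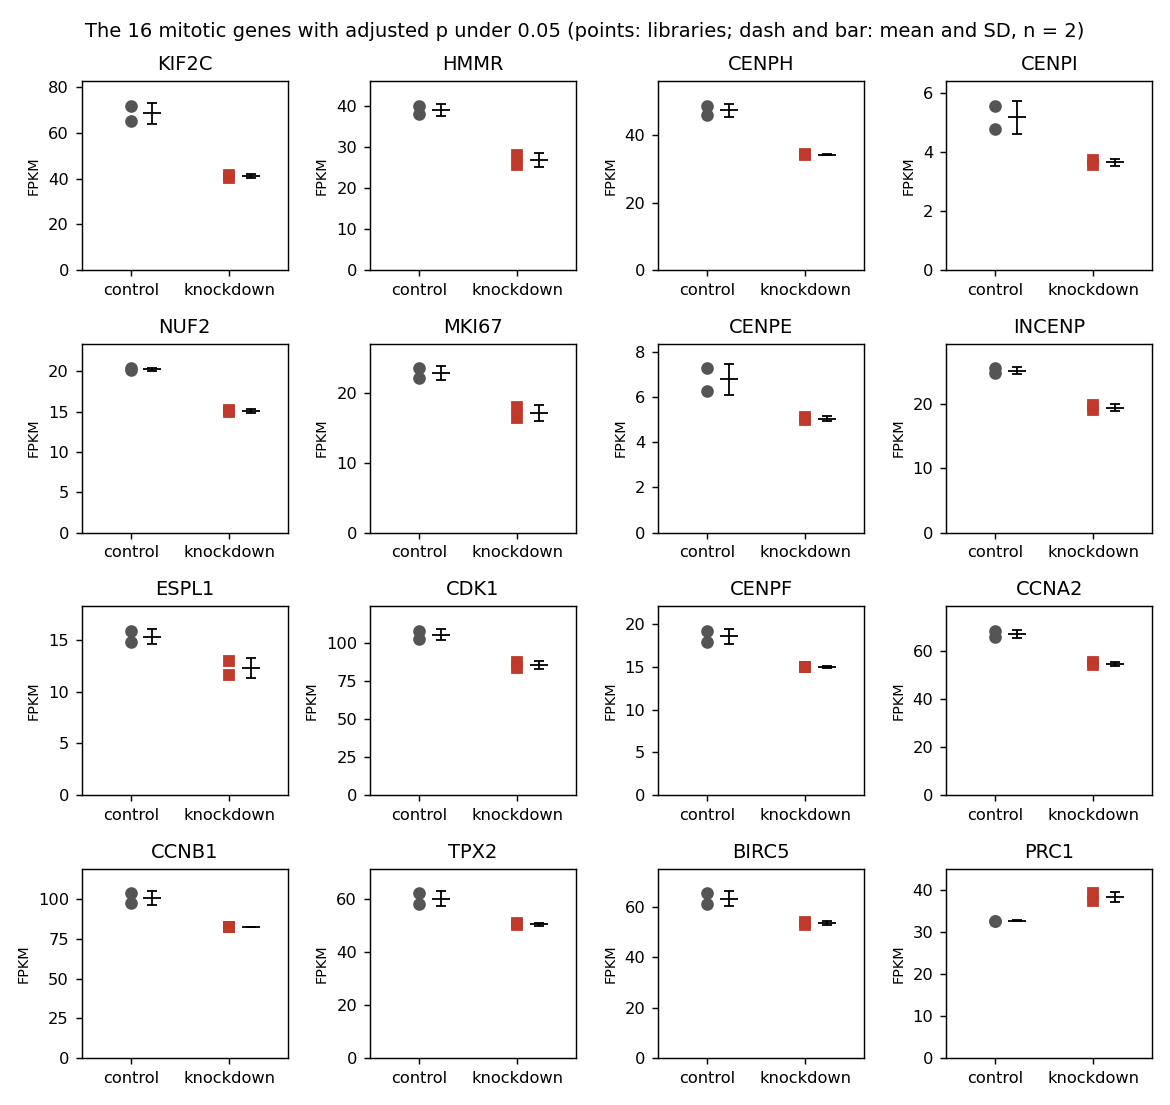
FPKM of the 16 mitotic genes with an adjusted p under 0.05, each axis starting at 0. Circles are the 2 control libraries, squares the 2 knockdown libraries, and the dash with its bar is the mean and SD (n = 2). In the first 15 panels both knockdown libraries lie below both controls, and in the PRC1 panel both lie above.

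Transcripts were also read apart, since the values of a gene are sums over them. The 51 genes had 116 transcripts, of which 101 were tested, and 0 were called when transcripts were tested in place of genes (limma), against 25 of 15795 transcripts in the whole table (0.158%). At an unadjusted p under 0.05, 23 of the 101 were lower (22.8%), against 10% of all tested transcripts. CDK1 transcripts differed more within groups than between them. NM_001786 was at 69.6 and 28.7 FPKM in the controls and 25.8 and 59.5 FPKM in the knockdown, while NM_033379 was at 29.0 and 74.1 FPKM in the controls and 54.0 and 23.2 FPKM in the knockdown. The libraries high in the former were low in the latter, within both groups, although the gene sum changed little between replicates. KIF2C NM_006845, with 86.8% of the gene's signal, was at 60.4 and 57.6 FPKM in the controls and 37.1 and 35.7 FPKM in the knockdown (-0.68, limma adjusted p = 0.0587). The main transcripts of HMMR had values of -0.41 (NM_001142556) and -0.58 (NM_012485), neither called (limma adjusted p = 0.161 and 0.0891). For PRC1, NM_003981 was at 12.5 and 12.6 FPKM in the controls and 20.4 and 17.9 FPKM in the knockdown, and NM_199413 was at 14.4 and 15.6 FPKM in the controls and 11.01 and 14.5 FPKM in the knockdown. The groups overlapped for the latter, neither was called (limma adjusted p = 0.0994 and 0.456), and differences between transcripts were not tested.

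To set these genes beside the rest of the mitotic machinery, 123 further genes in 7 lists were read in the same fit. Of these, 15 were lower and 4 higher with an adjusted p under 0.05 (limma), 12.2% and 3.25% against 9.99% and 10.9% of all tested genes, and their median log2 fold change was -0.046. The lists had a median level of 17.6 FPKM and all tested genes one of 9.86 FPKM. With a mean of at least 5 FPKM, 14.3% of tested genes were called lower and 14.7% higher. Among 31 other kinetochore and centromere genes, 4 were lower and 1 higher (12.9% and 3.23%). CENPB, which binds the alphoid repeats of centromeres, had the lowest value of any gene in these lists: it was at 47.7 and 39.5 FPKM in the controls and 19.9 and 19.2 FPKM in the knockdown (-1.11, standard error 0.092, limma adjusted p = 0.00122). DSN1, a subunit of the MIS12 complex that links the inner to the outer kinetochore, was at 10.6 and 9.91 FPKM in the controls and 6.33 and 6.70 FPKM in the knockdown (-0.59, standard error 0.074, limma adjusted p = 0.00397). CENPQ, a partner of CENPO, was higher (0.37, limma adjusted p = 0.0383), but was called in 5 of the 11 alternatives and had 0.24 without knockdown 2 (limma adjusted p = 0.157). The CENPB and DSN1 groups did not overlap.

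Of 18 cohesin and condensin genes, 3 were lower and 1 higher (16.7% and 5.56%, against 9.99% and 10.9% of all tested genes). SMC1A, a core subunit of cohesin, was at 32.6 and 33.2 FPKM in the controls and 19.97 and 20.2 FPKM in the knockdown (log2 fold change -0.68, standard error 0.058, limma adjusted p = 0.00124), and SMC4, a core subunit of condensin, was lower by less (-0.41, limma adjusted p = 0.00872), while NCAPG2 of condensin II was higher (0.26, limma adjusted p = 0.0245). Of the 17 genes of the anaphase-promoting complex and its cofactors only ANAPC15 was called (-0.45, limma adjusted p = 0.00799), and of 24 centrosome and spindle pole genes only SPAG5, which encodes astrin (-0.27, limma adjusted p = 0.0214). These were 5.88% and 4.17% of their lists, against 20.9% of all tested genes called in either direction. Of 6 further cytokinesis genes, RHOA, the GTPase of the contractile ring, was higher (0.20, limma adjusted p = 0.0450), which is 16.7% of that list. Of 14 regulators of mitotic entry and exit, HASPIN (-0.32) and CKS1B (-0.29) were lower and PPP2R5A (0.24) was higher (limma adjusted p = 0.0268, 0.0486 and 0.0353). Thus 14.3% of that list were lower and 7.14% higher.

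Among 13 genes of the DREAM complex and of B-MYB and FOXM1, which repress and activate the transcription of mitotic genes, 4 were lower and 0 were higher (limma, with 1 higher at an unadjusted p under 0.05), 30.8% against 9.99% of tested genes. FOXM1, the activator of G2 and M genes, was at 18.1 and 15.9 FPKM in the controls and 13.0 and 11.6 FPKM in the knockdown (log2 fold change -0.43, standard error 0.086, limma adjusted p = 0.0163). RBL2, which encodes the pocket protein p130, was at 10.7 and 10.9 FPKM in the controls and 8.80 and 8.60 FPKM in the knockdown (-0.28, standard error 0.065, limma adjusted p = 0.0259). Also called lower were MYBL2, which encodes B-MYB (-0.27, limma adjusted p = 0.0216), and RBBP4 (-0.28, limma adjusted p = 0.0291). The lower genes thus included the activators FOXM1 and MYBL2 and a component of the repressor. In 24 genes of the G1 to S transition and origin licensing, read for comparison, 5 were lower (20.8% against 9.99% of tested genes) and 3 higher (12.5% against 10.9%), with a median of 0.0018. The helicase subunit MCM6 (-0.43, limma adjusted p = 0.00417) and the cyclin gene CCNE1 (-0.29, limma adjusted p = 0.0330) were lower. RRM2 of ribonucleotide reductase (0.61, limma adjusted p = 0.00156) and CCNE2, the other cyclin E gene (0.56, limma adjusted p = 0.00369), were higher. Of the genes named from these lists, MYBL2 and RBBP4 aside, CENPB, DSN1, SMC1A, MCM6, RRM2 and CCNE2 were called in all 11 gene-level alternatives. The others were called in 5 to 10, with the fewest for CENPQ and RHOA.

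**Figure D3:**
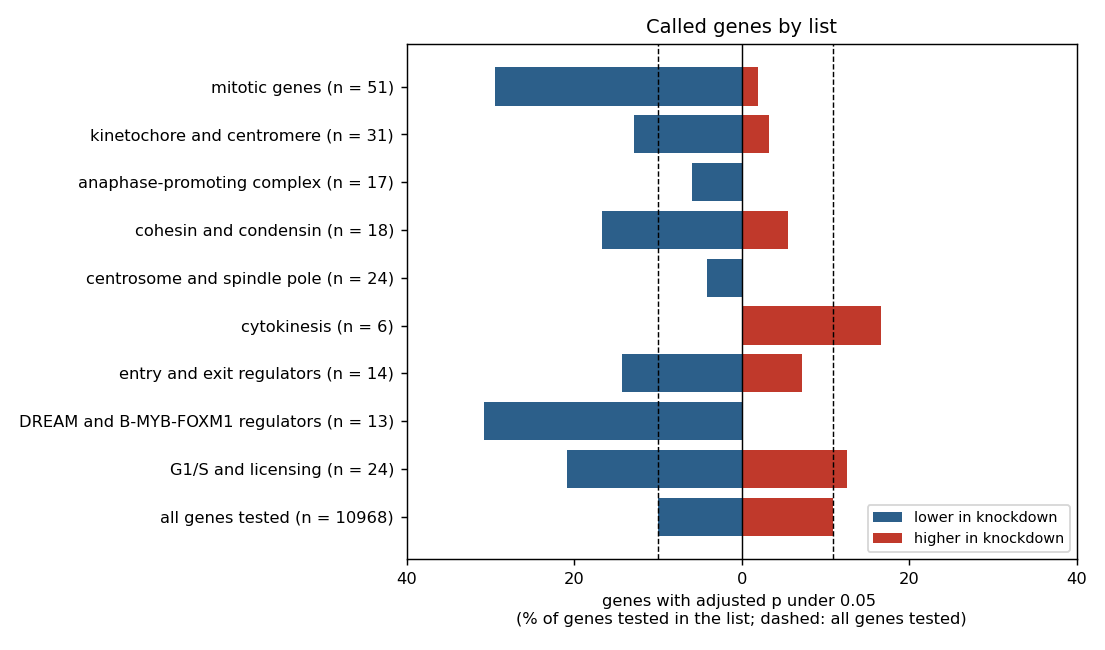
Percent of tested genes in each list with an adjusted p under 0.05, lower in the knockdown to the left and higher to the right, with the number of genes tested beside each name. Dashed lines mark all tested genes (9.99% lower, 10.9% higher). The 51 mitotic genes stand at 29.4% lower and 1.96% higher.

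The start sites of the genes were read for sequence elements that the choice of genes did not use. Many mitotic promoters carry a cell cycle genes homology region (CHR), the site bound by the DREAM and B-MYB complexes, near the start of transcription, with CCAAT boxes, bound by the trimeric factor NF-Y, farther upstream. The letters TTTGAA (CHR) and CCAAT were searched on both strands in RefSeq windows (GRCh38.p14) from 250 bases before to 50 bases after each start. The core GATGCAA, shared by many sites for ATF4 with a CEBP partner, was searched in the same way. Windows were held for 44 of the 51 genes, 49 windows in all, since some genes have more than 1 start. The windows of 1 gene can overlap. CENPH, CENPM, BUB3, TTK, BIRC5, AURKA and TPX2 had no entry.

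TTTGAA was found in 33 of the 49 windows (67.3%), against 10.2% of 12175 windows of tested genes and 15.2% of all 35116 windows. Within 50 bases of the start it was found in 57.1% of the mitotic windows, against 3.17% of the windows of tested genes. CCAAT was found in 77.6%, against 35.4% and 34.6%, and both together in 53.1%, against 4.25% and 5.90%. Matches of TTTGAA had a median position of -24.5 from the start and those of CCAAT of -74.5, and the matches shared a base in 2 windows. GATGCAA was found in 0 of the 49 windows, against 1.54% of the windows of tested genes, which says only that these letters are not in these windows. Among the mitotic genes TTTGAA and CCAAT were not more frequent in those that fell. TTTGAA was present for 7 of the 12 lower genes with a window (58.3%) and for 24 of the other 32 (75.0%). CCAAT was present for 8 of 12 (66.7%) and 27 of 32 (84.4%). Only these exact letters were searched, so elements in other letters were not counted, and whether lower genes hold them more often was not tested. The CENPI window, without a match, begins at base 101100808 of chromosome X, and the gene at base 101098188.

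**Figure D4:**
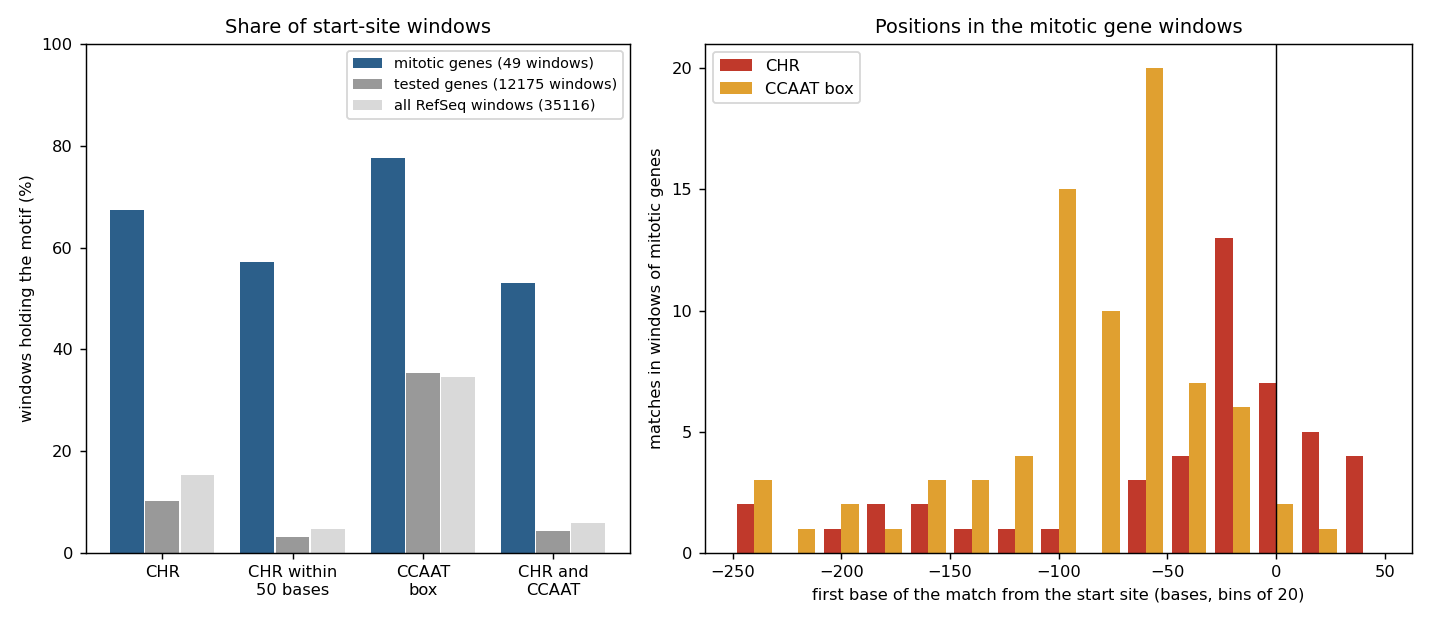
Left, percent of start-site windows (300 bases) that hold TTTGAA (CHR), TTTGAA within 50 bases of the start, CCAAT, or both, for the mitotic genes, all tested genes and all RefSeq windows. Right, number of matches in the 49 mitotic windows by distance from the start site, in bins of 20 bases. TTTGAA was in 67.3% of mitotic windows and 10.2% of windows of tested genes, with its matches around a median of -24.5, downstream of the CCAAT matches around -74.5.

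A total of 5 of these windows are shown, from 250 bases before to 30 after the start, 5′ to 3′ on the strand of the gene, with matches of TTTGAA and CCAAT on either strand in capitals (TTCAAA and ATTGG are the reverse strand). They are the genes with the lowest log2 fold changes (KIF2C and HMMR), a called kinase (CDK1, at the downstream of its 2 starts), the called gene with higher values (PRC1) and an abundant gene that was not called (TOP2A).
KIF2C, chr1:44739587-44739866, plus strand: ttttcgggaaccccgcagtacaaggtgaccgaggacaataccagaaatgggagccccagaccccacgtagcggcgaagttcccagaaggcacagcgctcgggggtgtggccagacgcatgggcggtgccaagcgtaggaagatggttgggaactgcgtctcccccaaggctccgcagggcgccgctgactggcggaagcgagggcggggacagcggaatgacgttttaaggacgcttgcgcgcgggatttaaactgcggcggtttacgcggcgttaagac
HMMR, chr5:163460382-163460661, plus strand: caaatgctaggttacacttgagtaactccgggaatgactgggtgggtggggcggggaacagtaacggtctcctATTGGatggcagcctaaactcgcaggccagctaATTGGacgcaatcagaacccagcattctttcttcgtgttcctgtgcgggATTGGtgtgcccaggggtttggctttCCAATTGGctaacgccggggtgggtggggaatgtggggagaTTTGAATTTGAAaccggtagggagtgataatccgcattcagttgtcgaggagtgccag
CDK1, chr10:60778228-60778507, plus strand: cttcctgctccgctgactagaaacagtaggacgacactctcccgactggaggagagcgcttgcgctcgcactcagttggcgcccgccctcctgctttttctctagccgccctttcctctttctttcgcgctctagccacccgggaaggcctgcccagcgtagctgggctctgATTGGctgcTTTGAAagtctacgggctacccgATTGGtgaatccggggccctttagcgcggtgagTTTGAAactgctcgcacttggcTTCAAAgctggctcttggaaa
PRC1, chr15:90994506-90994785, minus strand: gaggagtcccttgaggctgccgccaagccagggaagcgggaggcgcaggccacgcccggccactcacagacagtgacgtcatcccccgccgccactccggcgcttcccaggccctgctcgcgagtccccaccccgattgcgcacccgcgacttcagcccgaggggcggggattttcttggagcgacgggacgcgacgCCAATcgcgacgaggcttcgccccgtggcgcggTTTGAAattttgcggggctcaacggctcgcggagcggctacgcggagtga
TOP2A, chr17:40417867-40418146, minus strand: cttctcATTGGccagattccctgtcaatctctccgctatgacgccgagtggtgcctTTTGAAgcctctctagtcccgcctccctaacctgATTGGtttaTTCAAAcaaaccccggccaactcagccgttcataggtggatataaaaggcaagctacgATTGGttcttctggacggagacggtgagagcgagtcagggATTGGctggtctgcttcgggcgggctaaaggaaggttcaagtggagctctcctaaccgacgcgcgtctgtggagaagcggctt
The KIF2C window, of the gene that changed most, holds neither TTTGAA nor CCAAT, and other forms of the elements were not searched. That of HMMR holds 5 CCAAT matches and 2 TTTGAA matches side by side, and that of CDK1 holds 2 and 3. PRC1, which was higher, has 1 of each, and TOP2A, which was not called, has 4 CCAAT and 2 TTTGAA matches.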

How the data were processed

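RNA-seq was carried out on 4 libraries labelled NB4, 2 control and 2 CEBPG knockdown. Per the labels, total RNA was extracted with Trizol and libraries were made with an Illumina TruSeq kit. The submitters' processing notes name HISAT2 2.0.5 and hg38. The authors deposited FPKM values per RefSeq transcript, 29265 rows with a column per library. The quantifier and annotation release were not given in the sources used here, and strand use was not stated. FPKM holds no read counts, so depth was unknown and no counting interval was given. FPKM depends on the division of reads between transcripts and on the mapped total of each library.

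Of the rows, 183 held no value and 164 no symbol, and these were left out. The remaining transcripts were summed per symbol to 16504 genes. Those averaging 1 FPKM or more over the 4 libraries were fitted on log2(FPKM + 1) with limma 3.58.1 (R 4.3.3) using a mean trend and no block. Tests were 2-sided, and p-values were adjusted by Benjamini and Hochberg's method over 10968 genes. The study named DESeq2, a count test, which FPKM values do not allow. On this scale a fold change of a low gene is understated. Motifs were searched with Python 3.11.15 in RefSeq windows, and gene positions were taken from GENCODE 44.

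Values per library are given for members that were called, for the lowest and highest member of each role, and for CDK1, CCNB1, TOP2A and MKI67. AURKB and CDC20 were given by their estimates as the only other members of their roles. From other lists, called genes were named, at most the 2 lowest and 2 highest of a list. MYBL2 and RBBP4 were named in addition and are not in the counts of named genes under the alternatives. The members and lists were chosen with earlier results of these data known. Alternatives were a pseudocount of 0.1, no filter, a mean of at least 5 FPKM, the replicate block, transcripts, 2 scalings, no mean trend and each library left out.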

Additional observations from a re-analysis of the deposited data

How the results depend on the processing

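Of 515 values of named genes under the alternatives, 375 kept direction and side of the threshold, 126 kept direction and lost the call, 6 gained it and 8 reversed, and the causes were not tested. Genes called lower (limma) among the 51 numbered 15 as reported, 6 with no filter and 0 with transcripts in place of genes (23 of 101 transcripts lower at an unadjusted p under 0.05, against 10% of all tested transcripts), and 4 to 13 with a library left out, lowest without knockdown 1. Genes called higher, 1 as reported, were 0 with no filter, with no mean trend and with transcripts, and 2 (CENPO and PRC1) with a filter at 5 FPKM and with either scaling. With a library left out PRC1 stayed above 0, at 0.19 to 0.25, without a call. In the other mitotic lists, 15 lower calls became 5 with no filter, 0 with transcripts and 5 to 14 with a library left out, and 4 higher calls became 0 with no filter, with no mean trend and with transcripts, and 0 to 3 with a library left out. Over all genes, calls were 456 lower and 426 higher with no filter, 14 and 11 with transcripts, and 415 to 948 and 394 to 1215 with a library left out. The median of the 51 genes ran from -0.15 (without control 2) to -0.079 (without knockdown 1). CEBPG was not called at transcript level (-1.15). Reversed values were SPC24 (-0.29), CDCA8 (0.12) and KIF23 (-0.075) with transcripts, KIF23 with a library left out (-0.0032 to 0.093), and BUB1 with median-ratio scaling (-0.0073), with columns scaled to 1 sum (-0.011) and with a library left out (-0.017 to 0.039), none of them called as reported.

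The replicate numbers name no shared culture or day in the labels, and with 2 pairs the deviations of same-numbered libraries correlated at 0.10 over all genes, so they were taken as numbers only. A replicate block gave 20 lower and 2 higher calls among the 51 genes, 23 and 8 in the other mitotic lists, and 1622 and 1818 over all genes. An exact permutation test of 2 against 2 libraries cannot go below p = 0.333, so every call rests on limma's shared estimate of spread. With 1 hairpin, off-target effects and loss of CEBPG cannot be told apart, and unknown depth leaves the counting error of low genes such as CENPI unknown.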
